A study of Homo sapiens with 6 samples.

Results

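Hepatocyte identity is set by a small group of transcription factors, and the genes described here are 8 of them, HNF4A, HNF4G, FOXA1, FOXA2, FOXA3, CEBPA, ONECUT1 and NR1H4. They were picked by symbol from the 38637 genes of the deposited table, and all 8 were found there. HCCLM3-SR cells, a human hepatocellular carcinoma (HCC) line grown stepwise into resistance against the kinase inhibitor sorafenib, were transfected with control siRNA (3 libraries) or with siRNA against the circular RNA cDCBLD2 (3 libraries). In both groups the siRNA acted for 3 days and 5 µM sorafenib was present, so the comparison holds no untreated cells and covers 1 resistant line. PolyA-Seq measured mRNA, and each value is in TPM (transcripts per 1000000), a level per gene length that can be compared between genes. The labels do not say that replicates are separate cultures, so a p-value covers the spread between these libraries, which may be technical.

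In the liver these factors bind each other's genes and many genes that make a hepatocyte. FOXA1, FOXA2 and FOXA3 are forkhead pioneer factors that open chromatin for the others. HNF4A is a nuclear receptor that drives genes of lipid transport, clotting and drug metabolism, and HNF4G is its paralog, better known from the intestine. CEBPA is a basic leucine zipper factor of the differentiated, non-dividing hepatocyte, ONECUT1 is a cut-homeodomain factor of the developing liver and bile ducts, and NR1H4 encodes FXR, the bile acid receptor.

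The regions before the start sites of the 3 tested factors with higher means after cDCBLD2 knockdown are shown here so that they can be compared (RefSeq, GRCh38.p14, the 250 bases before each start, written 5′ to 3′ along the gene). HNF4A has an upstream start, at chr20:44355449-44355698 on the plus strand, and a downstream start inside the gene, at chr20:44400989-44401238 on the plus strand. The downstream one is the main start in adult liver, and a value per gene adds up the transcripts from both. CEBPA lies at chr19:33302535-33302784 on the minus strand and FOXA3 at chr19:45864076-45864325 on the plus strand. Capitals mark the letters ATTGATT, read on both strands as a core that ONECUT factors bind, and the letters TATAAA, read on the gene's own strand as a TATA box.
HNF4A upstream start: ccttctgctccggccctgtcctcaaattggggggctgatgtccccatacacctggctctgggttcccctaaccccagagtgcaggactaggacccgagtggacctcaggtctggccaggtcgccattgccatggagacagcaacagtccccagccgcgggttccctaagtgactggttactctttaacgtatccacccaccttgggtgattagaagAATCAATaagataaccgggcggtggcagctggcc
HNF4A downstream start: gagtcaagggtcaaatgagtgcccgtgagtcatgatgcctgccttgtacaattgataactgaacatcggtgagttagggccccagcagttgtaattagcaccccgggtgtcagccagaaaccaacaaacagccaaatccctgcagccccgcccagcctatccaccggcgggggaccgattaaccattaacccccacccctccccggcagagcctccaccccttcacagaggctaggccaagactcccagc
CEBPA: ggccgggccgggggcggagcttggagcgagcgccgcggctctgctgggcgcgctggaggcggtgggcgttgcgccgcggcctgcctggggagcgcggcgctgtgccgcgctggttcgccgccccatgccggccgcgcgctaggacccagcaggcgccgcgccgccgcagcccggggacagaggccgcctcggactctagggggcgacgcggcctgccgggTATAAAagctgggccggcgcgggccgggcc
FOXA3: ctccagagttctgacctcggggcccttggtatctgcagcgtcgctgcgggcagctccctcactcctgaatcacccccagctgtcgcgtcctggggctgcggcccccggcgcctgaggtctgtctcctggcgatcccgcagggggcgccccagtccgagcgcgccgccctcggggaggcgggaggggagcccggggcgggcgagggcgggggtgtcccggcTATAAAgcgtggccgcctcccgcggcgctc
Both CEBPA and FOXA3 held TATAAA with its first base at -30 from the start, letters found in 6.8% of all 35116 windows of this length. The ONECUT letters stood at -34 before the upstream start of HNF4A and in 2.0% of all windows. The letters TGTTTAC (FOXA, in 3.0% of all windows), TTGCNNAA (C/EBP, in 9.1%) and CAAAGTCCA (HNF4, in 0.3%) were also searched on both strands, and none of these was found before the starts of the 6 members with an entry. HNF4G and FOXA2 had no entry.

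The series deals with a circular RNA and with miR-345-5p. The mature miRNA (RefSeq, GRCh38.p14, chr14:100307876-100307897, plus strand) is shown with its seed, bases 2 to 8, in capitals, together with the one match to this seed among the members' longest coding transcripts (GENCODE release 29).
hsa-miR-345-5p: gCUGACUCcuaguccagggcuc
HNF4A site: taggaagtggctGAGTCAGgacttgaaccc
The site, with the letters GAGTCAG in capitals, lies in the 3′ UTR of HNF4A at chr20:44431119-44431148 of GRCh38 on the plus strand. The other 7 members had no such letters in the transcript searched, and 23.4% of the 12688 genes tested with a transcript had at least 1 match. HNF4A, the member with the match, was at a higher level in the knockdown libraries than in the control libraries, as given next to its paralog HNF4G, which has none.

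Levels of the members differed far more between genes than between groups. FOXA2 was the most abundant, with a mean over the 6 libraries of 102 TPM, which was above 95.8% of all genes listed. CEBPA followed at 52.8 TPM and HNF4A at 26.2 TPM, and the order FOXA2, CEBPA, HNF4A held in all 6 libraries. FOXA1, HNF4G and FOXA3 had means of 12.2, 11.5 and 10.8 TPM, and their order was not the same in all libraries. FOXA1 was above HNF4G in 3 of 6 libraries, which were the knockdown libraries. HNF4G was above FOXA3 in 4 of 6, the control libraries and knockdown replicate 1. NR1H4 and ONECUT1 were at means of 0.304 and 0.0766 TPM. The plot of levels by library shows this gap between 6 expressed factors and 2 that were close to absent.

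**Figure D1:**
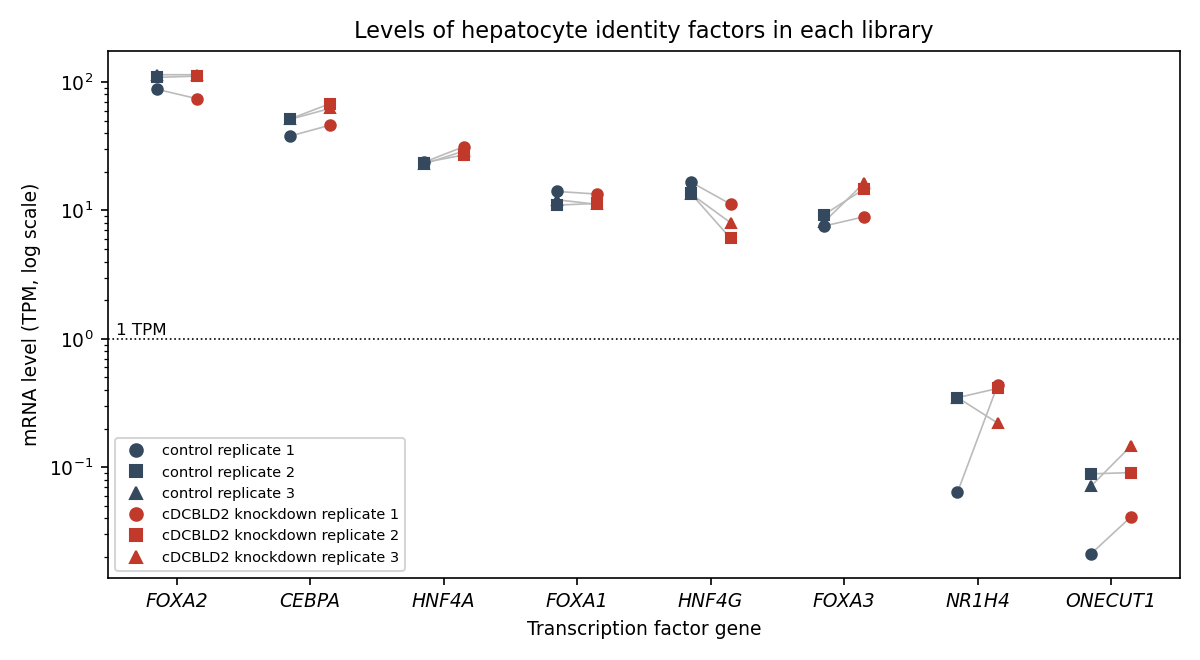
Level of each of the 8 factor genes in TPM (log axis) in the 3 control libraries (dark) and the 3 cDCBLD2 knockdown libraries (red), with marker shapes for replicate numbers and grey lines joining libraries of the same number. FOXA2, CEBPA and HNF4A lie above the other genes in all libraries, and NR1H4 and ONECUT1 lie under the dotted line at 1 TPM.

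Gene coordinates are those of GENCODE release 29 on GRCh38. Each gene was compared by limma's moderated test on log2(TPM + 1). This took in the 13980 genes whose mean reached 1 TPM, with Benjamini-Hochberg adjustment over all of them. Of the members, 6 passed this filter and NR1H4 and ONECUT1 did not. At an adjusted p under 0.05, limma called 0 of the 6 members, beside 0.250% of all genes tested called higher and 0.629% called lower. At an unadjusted p under 0.05 there were 3 members, HNF4A and FOXA3 higher (6.78% of all genes tested were higher) and HNF4G lower (19.4% were lower). Libraries of the same replicate number deviated together, those of replicate 1 most clearly. A fit with the replicate number as a block (the blocked fit) called 4 of the 6 members at an adjusted p under 0.05. HNF4A, FOXA3 and CEBPA rose in this fit (9.94% of all genes tested rose) and HNF4G fell (25.0% fell). None passed a log2 fold change of 1 in size as well, in either fit (0.0501% and 0.0787% of all genes tested were higher and lower past both thresholds without the block, 0.458% and 0.751% with it). Limma-voom on reads recovered from the TPM ratios, an alternative chosen after seeing the data, called HNF4A alone without the block (1.29% of its genes were higher and 1.72% lower), and the same 4 members with it (17.5% were higher and 20.5% lower).

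HNF4A and HNF4G, the 2 HNF4 paralogs, moved in opposite directions in the fit with the replicate block. HNF4A (ENSG00000101076.16) maps to chr20:44355700-44434596, plus strand. Its mRNA measured 31.3, 27.02 and 28.99 TPM in the knockdown libraries 1, 2 and 3, against 23.7, 23.6 and 22.9 TPM in control libraries 1, 2 and 3, from between 1177 and 1877 recovered reads per library. All 3 knockdown libraries were above all 3 control libraries, as in 9.58% of all genes tested. The means were 29.1 ± 2.15 TPM (SD, n = 3) and 23.4 ± 0.399 TPM (SD, n = 3), and the exact permutation test (two-sided) gave p = 0.1, which is the lowest value possible with 3 libraries a group. The log2 fold change came to 0.30, with a standard error of 0.08 (limma adjusted p = 0.0949 unblocked and 0.0196 blocked).

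HNF4G (ENSG00000164749.11) maps to chr8:75407914-75566843, plus strand. It measured 11.2, 6.06 and 8.02 TPM in the knockdown libraries 1, 2 and 3, against 16.7, 13.7 and 13.5 TPM in control libraries 1, 2 and 3, from between 284 and 560 recovered reads per library. Here all knockdown libraries lay below all control libraries, as in 22.3% of all genes tested. The means were 8.43 ± 2.59 TPM in knockdown and 14.6 ± 1.79 TPM in control libraries (SD, n = 3 each, two-sided exact permutation test, p = 0.1). The log2 fold change came to -0.76, with a standard error of 0.21 (limma adjusted p = 0.0975 unblocked and 0.00891 blocked). Without knockdown replicate 1 the log2 fold change was -0.96 and the limma adjusted p was 0.0161, where 19.8% of all genes tested were called lower. Without knockdown replicate 2 it was -0.57 (limma adjusted p = 0.235), and leaving out any other single library gave no call of HNF4G.

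As both paralogs were measured per length in the same library, their ratio does not depend on how the library was scaled. The ratio of HNF4G to HNF4A was 0.358, 0.224 and 0.277 in knockdown replicates 1, 2 and 3, and 0.706, 0.579 and 0.590 in the control replicates. It was 0.286 ± 0.0671 (SD, n = 3) after knockdown and 0.625 ± 0.0699 (SD, n = 3) in control cells, with groups that did not overlap (two-sided exact permutation test on the log2 ratio, p = 0.1). Within pairs of the same number, the log2 ratio fell by 0.98, 1.37 and 1.09. The sum of both paralogs was 37.5 ± 4.73 TPM in knockdown and 38.0 ± 2.07 TPM in control libraries (SD, n = 3 each, two-sided exact permutation test, p = 0.9). The stacked levels show a sum that overlapped between the groups, of which HNF4G made up a smaller part in the knockdown libraries.

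**Figure D2:**
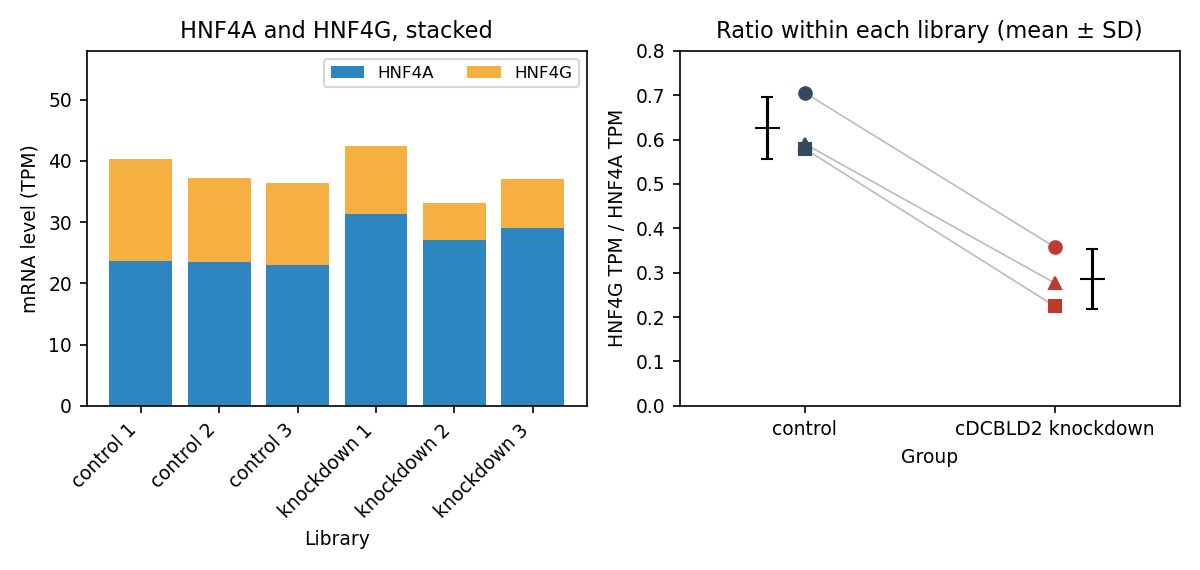
Left, HNF4A and HNF4G levels (TPM) stacked for each of the 6 libraries. Right, the ratio of HNF4G to HNF4A in each library, joined by replicate number, with mean and SD (n = 3) beside the points; the 3 knockdown ratios, from 0.224 to 0.358, lie below the 3 control ratios, from 0.579 to 0.706.

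The 2 paralogs differ in base composition, and fold changes in these libraries followed base composition. The longest coding transcript of HNF4G had a GC content of 35.9%, and that of HNF4A had one of 52.8%. Over the 12695 genes tested with a transcript in GENCODE release 29, Spearman's rho between the log2 fold change and GC content was 0.648, a description across genes, which are not independent replicates. The median log2 fold change was -0.41 in the lowest of 5 groups of genes ranked by GC content and 0.11 in the highest. When the trend with GC content was taken out of every library, HNF4G was at -0.29 (limma adjusted p = 0.134 unblocked and 0.0429 blocked). HNF4A was at 0.30 under the same offset (limma adjusted p = 0.116 unblocked and 0.0191 blocked). The difference between the log2 fold changes of HNF4G and HNF4A was -1.06 as deposited and -0.59 after the offset. With the offset and the block, 12.4% of all genes in that fit were called higher and 13.4% lower. A GC trend of technical origin and one of cellular origin cannot be told apart here.

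**Figure D3:**
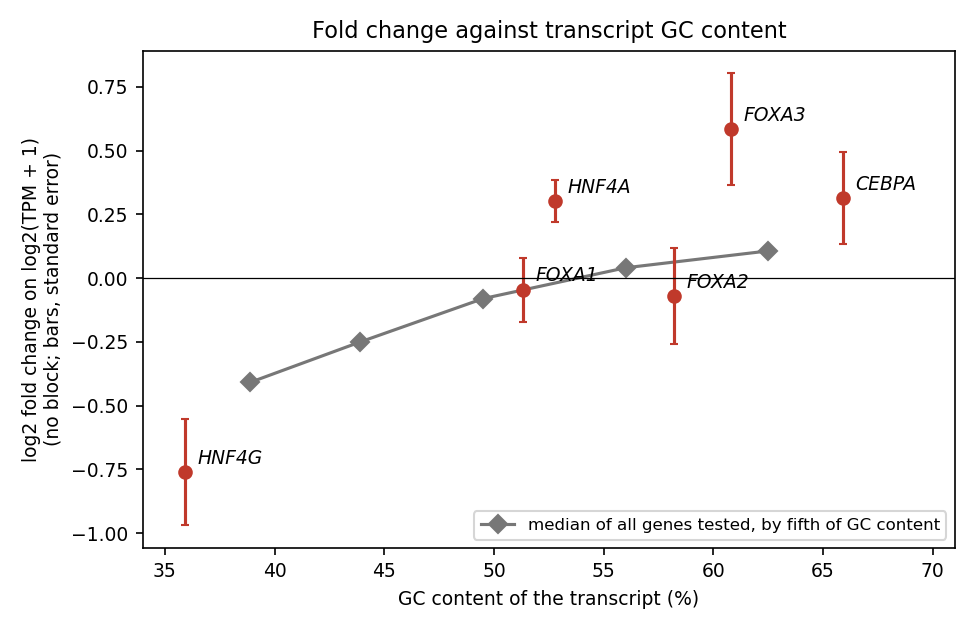
Log2 fold change of the 6 tested members on log2(TPM + 1), without the block, against the GC content of the longest coding transcript (%), with standard errors as bars, and the median of all genes tested in each of 5 groups ranked by GC content as a grey line. The grey line climbs from -0.41 to 0.11, HNF4G, at -0.76, lies below its low end, and HNF4A, CEBPA and FOXA3 lie above it.

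Among the FOXA genes, FOXA3 was the one that passed the test in the blocked fit. FOXA3 (ENSG00000170608.2) maps to chr19:45863989-45873797, plus strand. It measured 8.92, 14.7 and 16.3 TPM in the knockdown libraries 1, 2 and 3, against 7.55, 9.26 and 8.12 TPM in control libraries 1, 2 and 3. Knockdown replicates 2 and 3 were above all control libraries, while knockdown replicate 1 was below control replicate 2, so the groups overlapped. The means were 13.3 ± 3.89 TPM (SD, n = 3) and 8.31 ± 0.870 TPM (SD, n = 3), from between 98 and 275 recovered reads in each library (by two-sided exact permutation, p = 0.2). The log2 fold change came to 0.58, with a standard error of 0.22 (limma adjusted p = 0.159 unblocked and 0.0290 blocked). It was higher in 3 of 3 pairs of the same number, by 0.21, 0.61 and 0.93 on the log2 scale. Without knockdown replicate 1 it was 0.83 (limma adjusted p = 0.0145), where 4.64% of all genes tested were called higher. Without knockdown replicate 3 it was 0.43 (limma adjusted p = 0.405), and leaving out any other single library gave no call of FOXA3. With the GC-content offset it was 0.47 (limma adjusted p = 0.186 unblocked and 0.0409 blocked).

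FOXA2 (ENSG00000125798.14) maps to chr20:22581005-22585455, minus strand. It measured 74.3, 111 and 114 TPM in the knockdown libraries 1, 2 and 3, against 88.0, 109 and 114 TPM in control libraries 1, 2 and 3. The low libraries were replicate 1 of both groups, and the groups overlapped almost fully. The log2 fold change was -0.07, with a 95% confidence interval from -0.52 to 0.38 (limma adjusted p = 0.837), or from -0.23 to 0.09 in the blocked fit. With the GC-content offset it was -0.16 (limma adjusted p = 0.576 unblocked and 0.0963 blocked). The interval with the offset and the block ran from -0.298 to -0.014.

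FOXA1 (ENSG00000129514.5) maps to chr14:37589984-37596059, minus strand. It measured 13.4, 11.3 and 11.2 TPM in the knockdown libraries 1, 2 and 3, against 14.1, 10.999 and 12.1 TPM in control libraries 1, 2 and 3. Here replicate 1 was the high library in both groups, in contrast to FOXA2. The log2 fold change was -0.04, with a 95% confidence interval from -0.35 to 0.26 (limma adjusted p = 0.845), or -0.22 to 0.14 with the replicate block. Upper-quartile and median-of-ratios scaling moved the median log2 fold change of all genes tested from -0.08 to -0.02 and 0.0012, and with this common shift FOXA1 and FOXA2 stood above 0, so no direction is given for either.

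The 3 FOXA genes summed to 125 ± 24.7 TPM in knockdown and 124 ± 13.0 TPM in control libraries (SD, n = 3 each, two-sided exact permutation test, p = 1.0). FOXA2 made up most of this sum in all 6 libraries. The ratio of FOXA3 to FOXA2 was 0.120, 0.132 and 0.143 in knockdown replicates 1, 2 and 3, and 0.0859, 0.0852 and 0.0712 in the control replicates. Unlike the levels of FOXA3 itself, these ratios did not overlap between the groups (two-sided exact permutation test on the log2 ratio, p = 0.1). The difference between the log2 fold changes of FOXA3 and FOXA2 was 0.65 as deposited and 0.63 after the GC-content offset. The ratio of FOXA1 to FOXA2 overlapped between the groups, with means of 0.127 ± 0.0466 (SD, n = 3) and 0.122 ± 0.0325 (SD, n = 3).

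CEBPA (ENSG00000245848.2) maps to chr19:33299934-33302564, minus strand. It measured 46.1, 67.9 and 62.3 TPM in the knockdown libraries 1, 2 and 3, against 37.9, 51.5 and 51.2 TPM in control libraries 1, 2 and 3. The groups overlapped, replicate 1 was the lowest library of each group, and each knockdown library was above the control library of its own number. The means were 58.8 ± 11.3 TPM (SD, n = 3) and 46.9 ± 7.77 TPM (SD, n = 3), from between 673 and 1683 recovered reads in each library (by two-sided exact permutation, p = 0.3). The log2 fold change came to 0.31, with a standard error of 0.18 (limma adjusted p = 0.313). It depended on single libraries, at 0.17 without control replicate 1, 0.20 without knockdown replicate 2 and 0.48 without knockdown replicate 1. In the blocked fit its standard error was 0.05 (limma adjusted p = 0.00997). CEBPA had the highest GC content of the 6 tested members, 65.9%. With the GC-content offset its log2 fold change was 0.16, with a limma adjusted p of 0.481 and of 0.0682 with the replicate block, so that the call was lost.

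The plot of fold changes sets the 4 fits side by side. The interval of HNF4A changed little between them. That of HNF4G moved towards 0 with the GC-content offset, and that of CEBPA narrowed with the block.

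**Figure D4:**
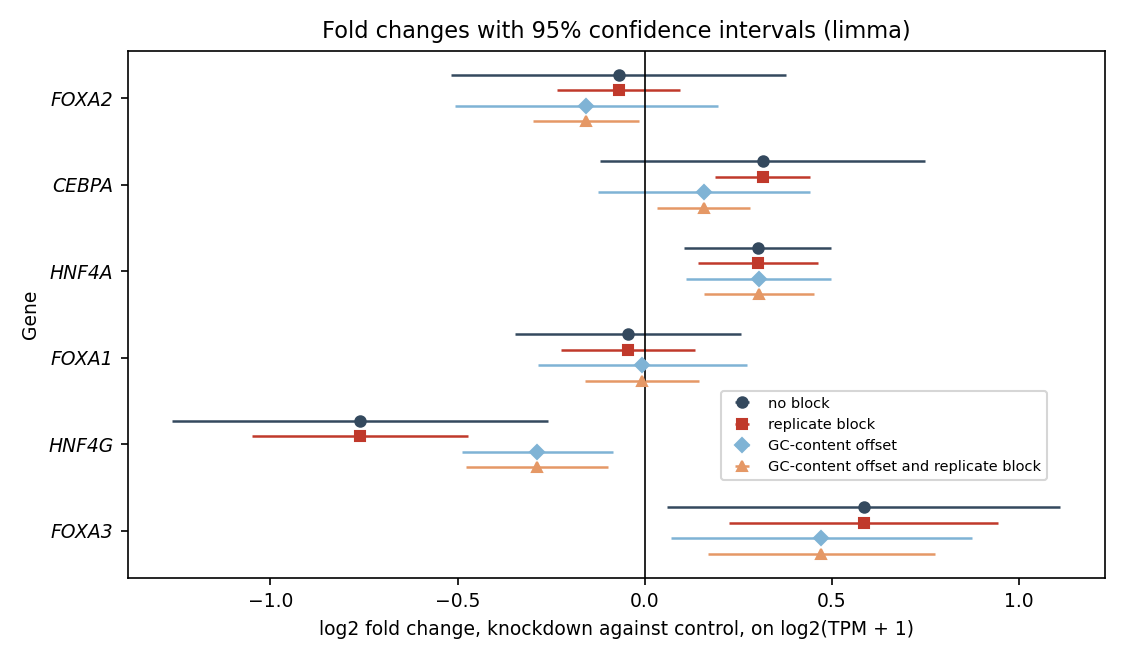
Log2 fold change after cDCBLD2 knockdown with its 95% confidence interval (limma) for the 6 tested members, without and with the replicate block and with each library's GC-content trend removed. HNF4A and FOXA3 lie above 0 and HNF4G below 0 in all 4 fits, while the intervals of FOXA1 include 0 in all 4.

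NR1H4 and ONECUT1 were near the limit of detection. NR1H4 (ENSG00000012504.14, chr12:100473708-100564413, plus strand) had 14, 18 and 9 recovered reads in knockdown replicates 1, 2 and 3, and 2, 13 and 13 in the control replicates. Its level was 0.355 ± 0.117 TPM in knockdown and 0.254 ± 0.164 TPM in control libraries (SD, n = 3 each), with overlapping groups (two-sided exact permutation test, p = 0.5). ONECUT1 (ENSG00000169856.8, chr15:52756989-52791078, minus strand) had 2, 6 and 9 recovered reads in the knockdown replicates and 1, 5 and 4 in the control replicates. Its level was 0.0928 ± 0.0528 TPM (SD, n = 3) and 0.0604 ± 0.0351 TPM (SD, n = 3) in the same order (two-sided exact permutation test, p = 0.4). Limma-voom on recovered reads tested NR1H4 and gave a log2 fold change of 0.75, with a 95% confidence interval from -0.68 to 2.18 (limma adjusted p = 0.464, and 0.414 with the block).

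Replicate 1 stood apart in both groups, with the fewest recovered reads. Recovered totals ran from 17489570 to 23059351 reads over the 6 libraries and are lower bounds. With replicate 1 of both groups left out, an alternative chosen after seeing the data, the same 4 members passed an adjusted p of 0.05. The log2 fold changes were then 0.26 for HNF4A (limma adjusted p = 0.0319), 0.77 for FOXA3 (0.00779), 0.33 for CEBPA (0.0136) and -0.87 for HNF4G (0.0105), where 9.68% of all genes tested were called higher and 25.3% lower.

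Genes next to the members were also looked at. LINC00261, a long noncoding RNA gene beside FOXA2, was at 16.5 ± 3.68 TPM in knockdown and 19 ± 3.81 TPM in control libraries (SD, n = 3 each, limma adjusted p = 0.544 unblocked and 0.0569 blocked). CEBPA-DT, transcribed away from CEBPA, was at 5.52 ± 0.815 TPM (SD, n = 3) and 5.54 ± 0.209 TPM (SD, n = 3) (limma adjusted p = 0.965 unblocked and 0.951 blocked). GAS2L3, a cytoskeletal linker gene within 10 kb of NR1H4, was the 1 of 6 tested neighbours called in the blocked fit, in which 25.0% of all genes tested fell. It was at 6.54 ± 0.720 TPM after knockdown and 12.1 ± 1.74 TPM in control libraries (SD, n = 3 each), with groups that did not overlap, as in 22.3% of all genes tested in the lower direction. The log2 fold change of GAS2L3 was -0.79 (limma adjusted p = 0.0544 unblocked and 0.00503 blocked). It was -0.46 with the GC-content offset and the block (limma adjusted p = 0.0132). In that last fit IRF2BP1, near FOXA3, was also called lower (-0.19, limma adjusted p = 0.0241). HNF4A-AS1, which overlaps HNF4A on the other strand, was listed at 0 TPM in all knockdown libraries and at 0.229, 0.192 and 0.193 TPM in control libraries 1, 2 and 3. These levels were near the limit of detection and under the filter of 1 TPM, so HNF4A-AS1 was not tested. The strand setting of the counting is not stated, so reads of overlapping genes may be mixed.

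Markers of the labelled cell type were present in part. Of 12 hepatocyte markers, 6 had a mean of at least 1 TPM (APOB, APOH, SERPINA1, FGA, AHSG and AMBP), as did 60.7% of all protein-coding genes, and their summed level was from 86.1 to 93.6 TPM in knockdown libraries and from 73.2 to 86.0 TPM in control libraries. APOH, a plasma glycoprotein gene, made up most of this sum, with means of 73.6 ± 3.73 and 65.1 ± 7.07 TPM (SD, n = 3 each). The other markers went both ways. ALB, the gene of serum albumin, was at 0.607 ± 0.368 TPM after knockdown and 1.11 ± 0.440 TPM in control libraries (SD, n = 3 each), with overlapping groups and a lower value in 3 of 3 pairs of the same number. AHSG, the gene of the plasma protein fetuin-A, was at 2.25 ± 1.04 and 0.962 ± 0.187 TPM (SD, n = 3 each, limma adjusted p = 0.162 unblocked and 0.0327 blocked), and its groups did not overlap (9.58% of all genes tested in the higher direction). TTR, the gene of the thyroid hormone carrier transthyretin, had 7, 9 and 7 recovered reads in knockdown libraries and 1 in each control library, so its groups did not overlap. Its mean was under 1 TPM, which left it out of the main test. With no filter on low values its log2 fold change was 1.04 (limma adjusted p = 0.0598). The gene of transferrin, TF, was under 0.1 TPM in all 6 libraries. Summed markers of cholangiocytes were from 208 to 370 TPM and from 287 to 323 TPM, mostly from SPP1, which liver cancer cells also express. Endothelial markers summed to between 3.75 and 5.79 TPM over all 6 libraries, and leukocyte markers to between 91.5 and 126 TPM, nearly all from the lysosomal gene CD68. H19, a fetal noncoding RNA gene, made up nearly all of the fetal or hepatoma markers, which summed to between 194 and 827 TPM after knockdown and between 70.8 and 252 TPM in control libraries. H19 had a log2 fold change of 1.59 (limma adjusted p = 0.181 unblocked and 0.00127 blocked), with overlapping groups. Fibroblast markers summed to between 7.76 and 18.1 TPM after knockdown and between 5.49 and 6.31 TPM in control cells. The 18.1 TPM was knockdown replicate 1, where COL1A1 was at 11.2 TPM, against 3.61 and 3.64 TPM in knockdown replicates 2 and 3. COL1A2 was at 2.67 TPM in knockdown replicate 1, from 1 recovered read, and at 0 in every other library. The log2 fold change of COL1A1 was 1.06 (limma adjusted p = 0.196 unblocked and 0.0132 blocked). Without knockdown replicate 1 that of COL1A1 was 0.59 (limma adjusted p = 0.192). The part of these marker differences in the results was not tested. All libraries come from 1 cultured line, so these sums are not read as shares of liver cell types. In bulk RNA, fewer cells with a marker and less of its RNA per cell cannot be told apart.

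Genes known as targets of the factors were mostly at low levels. Of 28 listed HNF4A targets, 9 had a mean of at least 1 TPM, against 60.7% of all protein-coding genes, and 6 were at 0 in all libraries, among them PCK1 and CYP7A1. Of 18 FXR targets 5 had at least 1 TPM, and the median target was at 0.0683 TPM, beside an NR1H4 mRNA that was itself under 1 TPM. Of 13 FOXA and C/EBPalpha targets 6 had at least 1 TPM. In contrast, 22 of 28 other liver-enriched transcription factors had at least 1 TPM, with a median of 18.7 TPM, close to the 11.9 TPM of the 8 members. The plot of levels by gene list shows 6 of the 8 members and 22 of the 28 other factors to the right of the dotted line, and most of the targets to its left.

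**Figure D5:**
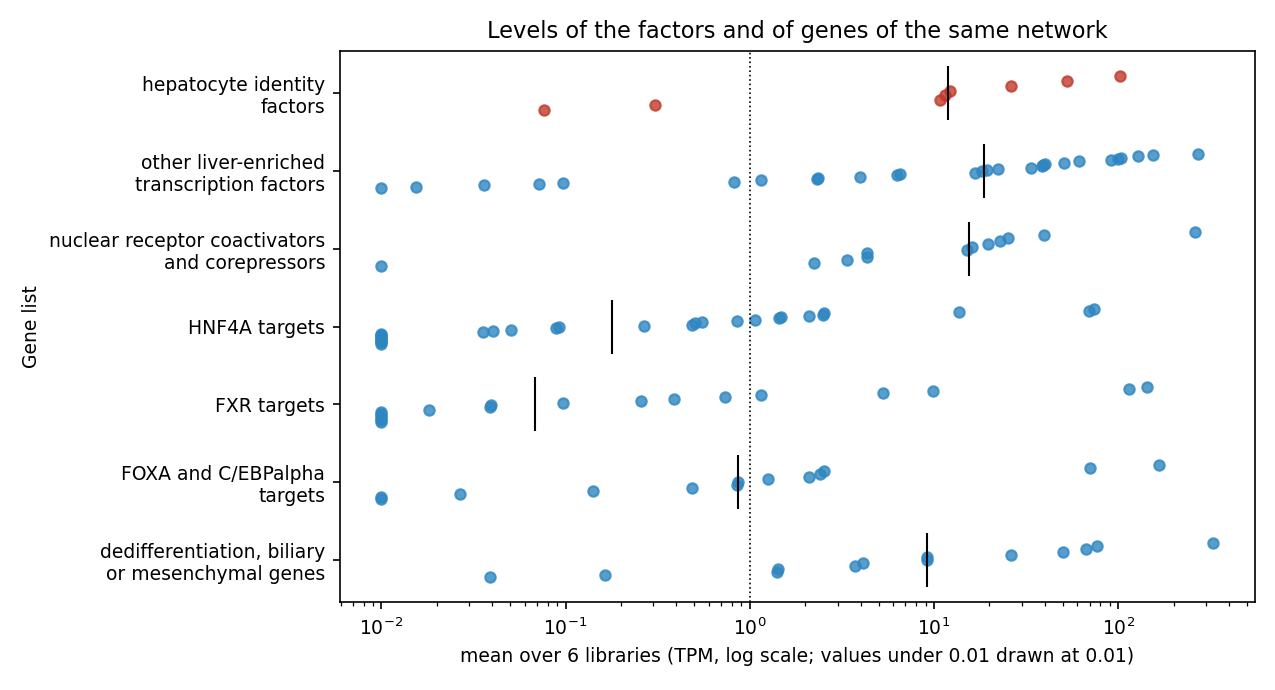
Mean level over the 6 libraries (TPM, log axis) of each gene in 7 lists, with 1 point per gene and a black bar at the median of the list; values under 0.01 TPM are drawn at 0.01. The medians of the HNF4A, FXR, and FOXA and C/EBPalpha targets, from 0.0683 to 0.859 TPM, lie below 1 TPM, and the medians of the factor lists lie above 10 TPM.

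Among the 9 HNF4A targets tested, limma called 0 genes without the block, with a median log2 fold change of -0.21 beside -0.08 over all genes tested. After the GC-content offset these medians were -0.0095 and -0.0046. With the replicate block 1 fell, APOB, the structural protein of VLDL and LDL particles, and 0 rose (25.0% and 9.94% of all genes tested). APOB measured 2.71, 0.902 and 1.30 TPM in the knockdown libraries 1, 2 and 3, against 4.26, 2.72 and 3.35 TPM in control libraries 1, 2 and 3, with a log2 fold change of -0.80 (limma adjusted p = 0.138 unblocked and 0.0126 blocked). All knockdown libraries but replicate 1 lay far below the control libraries, and replicate 1 lay just below control replicate 2. MTTP, which loads lipid onto APOB, and APOH were the most abundant targets, at 68.3 ± 8.58 and 73.6 ± 3.73 TPM (SD, n = 3 each) after knockdown. Neither passed without or with the block (limma adjusted p = 0.254 and 0.279 unblocked, 0.111 and 0.117 blocked). MTTP fell in the fit without knockdown replicate 1 (-0.31, limma adjusted p = 0.0396), where 19.8% of all genes tested were lower. APOH rose by limma-voom with the block (limma adjusted p = 0.0291), where 17.5% of genes were higher. With the GC-content offset and the block 1 target was higher and 2 were lower (12.4% and 13.4% of all genes in that fit). APOH rose there (0.47, limma adjusted p = 0.00533), APOB and F7 fell (0.0239 and 0.0308), and MTTP turned from -0.21 to 0.11 (0.219). As deposited, the clotting factor gene F7 had a log2 fold change of -0.36 (limma adjusted p = 0.408 unblocked and 0.0602 blocked), and the pyruvate kinase gene PKLR one of -0.35 (0.203 and 0.112). Without knockdown replicate 1, F7 was at -0.17 (limma adjusted p = 0.630). SERPINA1, a plasma protease inhibitor gene, was at 2.43 ± 0.723 TPM after knockdown and 1.77 ± 0.404 TPM in control libraries (SD, n = 3 each) and was higher in 3 of 3 pairs of the same number. Its log2 fold change was 0.30 (limma adjusted p = 0.400 unblocked and 0.111 blocked). By limma-voom with the block the limma adjusted p was 0.0340, where 17.5% of genes were higher.

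Of 5 FXR targets tested, 0 were called without the block, and SDC1, a cell-surface proteoglycan gene, and SLCO1B3, a bile acid and drug uptake carrier gene, fell with it (25.0% of all genes tested fell). SDC1 was at 103 ± 9.24 TPM in knockdown and 125 ± 3.71 TPM in control libraries (SD, n = 3 each, limma adjusted p = 0.113 unblocked and 0.0308 blocked). SLCO1B3 was at 3.93 ± 0.614 and 6.62 ± 2.13 TPM (SD, n = 3 each), with a limma adjusted p of 0.145, of 0.0176 with the replicate block, and of 0.613 with the GC-content offset and the block. SLC51A, a bile acid exporter subunit gene, was at 1.45 ± 0.970 and 0.865 ± 0.552 TPM (SD, n = 3 each, limma adjusted p = 0.579), and OSGIN1 at 156 ± 17.3 and 130 ± 14.3 TPM (SD, n = 3 each, limma adjusted p = 0.199). The OSGIN1 groups did not overlap, as in 9.58% of all genes tested in the higher direction. Limma-voom with the block called this gene higher (0.36, limma adjusted p = 0.0148), where 17.5% of genes were higher. With the GC-content offset and the block OSGIN1 was at 0.13 (limma adjusted p = 0.463). Of 6 FOXA and C/EBPalpha targets tested, 0 were called without the block, and 1 rose and 2 fell with it (9.94% and 25.0% of all genes tested). With the block IGFBP1, an insulin-like growth factor binding protein gene, rose, from 1.74 ± 0.541 to 3.10 ± 0.731 TPM (SD, n = 3 each; limma adjusted p = 0.140 unblocked and 0.0152 blocked). TRIB1, whose protein promotes the degradation of C/EBPalpha protein, fell with the block, from 180 ± 15.6 to 154 ± 7.69 TPM (SD, n = 3 each; limma adjusted p = 0.171 unblocked and 0.0174 blocked), and APOB, listed here too, was the other gene that fell. AFP, the fetal plasma protein gene, was at 1.47 ± 0.536 and 1.04 ± 0.118 TPM (SD, n = 3 each, limma adjusted p = 0.416), and UGP2, a gene of glycogen synthesis, at 66.3 ± 12.3 and 74.7 ± 5.44 TPM (SD, n = 3 each, limma adjusted p = 0.423). With the GC-content offset and the block, 3 of these targets were higher and 2 lower (12.4% and 13.4% of all genes in that fit). AFP was then called higher (0.66, limma adjusted p = 0.0152), and UGP2 turned from -0.18 to 0.17 and was called higher (0.0485). In contrast, UGP2 was called lower without knockdown replicate 1 (-0.33, limma adjusted p = 0.0354) and without replicate 1 of both groups (-0.28, 0.0172).

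Of the 22 other liver-enriched factors tested, limma called 0 without the block, and 5 rose and 3 fell with it, beside 9.94% and 25.0% of all genes tested. The median log2 fold change was 0.04. CEBPD and CEBPB, both C/EBP paralogs of CEBPA that respond to inflammation, were among the 5 that rose. CEBPD measured 33.4, 48.1 and 59.9 TPM in the knockdown libraries 1, 2 and 3, against 22.7, 33.1 and 36.4 TPM in control libraries 1, 2 and 3 (log2 fold change 0.59, limma adjusted p = 0.2004 unblocked and 0.00481 blocked). CEBPB was at 169 ± 20.3 and 140 ± 21.2 TPM (SD, n = 3 each), with a limma adjusted p of 0.256, of 0.01995 with the replicate block, and of 0.227 with the GC-content offset and the block. The ratio of CEBPB to CEBPA was 2.90 ± 0.273 after knockdown and 3.01 ± 0.362 in control cells (SD, n = 3 each), and it overlapped between the groups (two-sided exact permutation test on the log2 ratio, p = 0.6). CEBPB was therefore the more abundant paralog in both groups. GATA6, a zinc finger factor of endoderm, rose with the block, from 29.04 ± 1.09 to 38.0 ± 3.35 TPM (SD, n = 3 each; limma adjusted p = 0.0782 unblocked and 0.00890 blocked), and its groups did not overlap (9.58% of all genes tested in this direction). TEF, a PAR-type leucine zipper factor, rose with the block too (log2 fold change 0.40, limma adjusted p = 0.334 unblocked and 0.0194 blocked), as did TBX3, while NR2F2, CEBPG and PPARA fell. With the GC-content offset and the block, 4 of the list rose and 3 fell (12.4% and 13.4% of all genes in that fit). The calls of the 3 genes lower with the block were lost there, with NR2F2 at -0.28 against -0.35 as deposited (limma adjusted p = 0.0791), CEBPG at 0.02 against -0.25 (0.841) and PPARA at -0.17 against -0.31 (0.121), and the 3 that fell were GATA4, ESRRA and ATF5. NR1I2, the drug-sensing receptor PXR, was at 4.87 ± 0.759 and 3.10 ± 0.896 TPM (SD, n = 3 each, limma adjusted p = 0.161 unblocked and 0.0819 blocked). The NR1I2 groups did not overlap, as in 9.58% of all genes tested in the higher direction. Limma-voom with the block called this gene higher (0.71, limma adjusted p = 0.0254), where 17.5% of genes were higher. Its log2 fold change was 0.53 as deposited and 0.26 without replicate 1 of both groups (limma adjusted p = 0.189). XBP1, a factor of secretory cells and the most abundant of the list, was at 272 ± 22.9 and 269 ± 18.9 TPM (SD, n = 3 each; limma adjusted p = 0.940). ONECUT2, a paralog of ONECUT1, was at a mean of at least 1 TPM, with 0.902 and 1.40 TPM in the 2 groups (limma adjusted p = 0.275 unblocked and 0.136 blocked). The ONECUT2 groups did not overlap, as in 22.3% of all genes tested in the lower direction. Limma-voom with the block called this gene lower (-0.59, limma adjusted p = 0.0418), where 20.5% of genes were lower. With the GC-content offset and the block it was at -0.02 (limma adjusted p = 0.930).

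Coactivators and corepressors, the proteins through which nuclear receptors such as HNF4A and FXR act on transcription, held the only list genes that the unblocked test on log2(TPM + 1) called. Of 11 tested, 2 fell without the block, where 0.629% of all genes tested fell. This count was 0 on leaving out any 1 library other than knockdown replicate 1, without which it was 7, and 0 with no filter on low values. With the block 8 fell and 1 rose, beside 25.0% and 9.94% of all genes tested. The median log2 fold change was -0.52, and -0.26 after the GC-content offset, where 0 were called without the block (0.0236% of all genes in that fit were higher and 0.0158% lower) and 6 fell with it (13.4% fell). NCOA3, a steroid receptor coactivator gene, fell from 32.0 ± 1.01 to 18.2 ± 2.58 TPM (SD, n = 3 each), a log2 fold change of -0.79 (limma adjusted p = 0.0451 unblocked and 0.00518 blocked). NCOR1, a corepressor gene, fell from 49.8 ± 3.14 to 29.4 ± 2.78 TPM (SD, n = 3 each), a log2 fold change of -0.74 (limma adjusted p = 0.0444 unblocked and 0.00436 blocked). NCOA2 and MED1 were also lower, with log2 fold changes of -0.78 (limma adjusted p = 0.0690 unblocked and 0.0104 blocked) and -0.62 (0.0843 and 0.00563).

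Genes of dedifferentiation and of the biliary or mesenchymal state gave 0 calls without the block among 11 tested, and 2 rose and 1 fell with it, beside 9.94% and 25.0% of all genes tested. KRT7, a biliary keratin gene, measured 14.3, 11.1 and 10.9 TPM in the knockdown libraries 1, 2 and 3, against 7.10, 6.09 and 5.42 TPM in control libraries 1, 2 and 3. All knockdown libraries were above all control libraries, as in 9.58% of all genes tested. The log2 fold change of KRT7 was 0.86 (limma adjusted p = 0.0544 unblocked and 0.00450 blocked). By limma-voom without the block the limma adjusted p was 0.0371, where 1.29% of genes were higher. TGFB1 was the other gene that rose with the block, and ZEB1, a repressor of epithelial genes, was the one that fell. Both calls were lost with the GC-content offset and the block, where TGFB1 was at 0.16 (limma adjusted p = 0.0654) and ZEB1 at -0.29 (0.142). ZEB2, its paralog, had a log2 fold change of -0.41 (limma adjusted p = 0.133 unblocked and 0.0568 blocked), and one of -0.0083 with the GC-content offset and the block (0.966). VIM, SNAI1, SOX9 and CDH2 did not pass in either of these fits as deposited. With the GC-content offset and the block 3 genes of the list were higher and 0 lower (12.4% and 13.4% of all genes in that fit). These were KRT7, SNAI2 and CDH2, and CDH2 turned from -0.05 to 0.18 (limma adjusted p = 0.0296).

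FOXA2, as the most abundant member, was compared with all genes tested for a like pattern over the 6 libraries. The 3 genes with the highest Pearson's r on log2(TPM + 1) were CBS (0.999), ZDHHC11B (0.999) and GRK2 (0.998). All share with FOXA2 a low value in replicate 1 of both groups, and with this many genes and 6 libraries such values are a description only.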

How the data were processed

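The members and gene lists were chosen with earlier results of these data known. The authors deposited 1 table of TPM values per gene, each library summing to 1000000. The submitters' processing notes name fastp 0.20.1, HISAT2 2.1.0, StringTie 2.0 and hg38, and the annotation, strand and multimapping settings are not given in the sources used here. The design allowed for counts or TPM, and TPM was found, so the DESeq2 test named in the paper was not run. Values were transformed to log2(TPM + 1), genes with a mean under 1 TPM were left out, and the limma package (3.58.1, R 4.3.3) was used with its mean-variance trend. Thresholds were an adjusted p under 0.05 and, for both thresholds, a log2 fold change over 1 in size. Single values were compared by exact permutation tests in scipy 1.17.1.

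Replicate numbers come from the sample titles. Across genes, same-numbered libraries deviated together from their group means (correlation 0.560, 0.343 and 0.362 in pairs 1, 2 and 3). The highest correlation with a library of another number was -0.376 for pair 1 and 0.247 for pairs 2 and 3. Replicate 1 thus stood apart, while replicates 2 and 3 were less clearly separated from each other. The fit with the number as a block is given where it changed a call.

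A gene's TPM ratios between libraries are ratios of whole numbers, from which reads were derived. Of 2000 genes drawn from the 17285 above 0 in all libraries, 99.8% gave whole reads within 0.02 reads, against 0.25% with library factors moved at random. Totals are lower bounds. GC content came from the longest coding transcript in GENCODE 29, matched by symbol for 90.8% of genes tested, and trends were removed by loess with a span of 0.5. The genes named were all members, the 3 genes most like FOXA2 and, in each list, those called, the 4 with the largest change and the 2 most abundant, of which 1 is not reported here. ALB, TTR, TF, FGA, AHSG, AMBP, H19, COL1A1, CD68, SPP1, ONECUT2, TBX3, NR2F2, CEBPG, PPARA, VIM, SNAI1, SOX9, SNAI2, GATA4, ESRRA, ATF5, PCK1, CYP7A1, LINC00261, CEBPA-DT, HNF4A-AS1, IRF2BP1 and GAS2L3 were named after their values were seen. The fits were tested on simulated data, and the outcome is not reported here. Alternatives were 2 scalings, 2 filters, a pseudocount of 0.1, the block, the GC-content offset and leaving out each library.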

Additional observations from a re-analysis of the deposited data

How the results depend on the processing

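HNF4A, FOXA3 and CEBPA kept a positive and HNF4G a negative log2 fold change under all 18 alternatives. Ranges were 0.25 to 0.55 for HNF4A (limma adjusted p from 0.00125 to 0.285), -0.96 to -0.29 for HNF4G (0.00141 to 0.288), 0.43 to 0.83 for FOXA3 (0.00451 to 0.405) and 0.16 to 0.48 for CEBPA (0.00107 to 0.624). The 0.55 of HNF4A, against 0.30 in the main fit, came with the transcript-length offset (limma adjusted p = 0.0368). FOXA1 turned positive with upper-quartile scaling (0.0211), median-of-ratios scaling (0.0441), the transcript-length offset (0.0255), limma-voom (0.0501) and limma-voom with the replicate block (0.0504), and ran from -0.123 to 0.0435 on leaving out each library. FOXA2 turned positive with upper-quartile scaling (0.00056), median-of-ratios scaling (0.0254), limma-voom (0.0315), limma-voom with the replicate block (0.0362) and without replicate 1 of both groups (0.0155), and ran from -0.182 to 0.128 on leaving out each library, and neither gene passed a test in any of these fits. The transcript-length offset, limma-voom and the fit without replicate 1 were chosen after seeing the data.

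Of the members, 0 were higher and 0 lower at an adjusted p under 0.05 without the block. The replicate block gave 3 higher and 1 lower, the GC-content offset with the replicate block 2 and 1, the fit without replicate 1 of both groups 3 and 1, limma-voom with the replicate block 3 and 1, the transcript-length offset 1 higher, and limma-voom 1 higher. The shares of all genes called in these fits are given above, except for the transcript-length offset, whose share is not reported here. Leaving out each library gave from 0 to 1 higher and from 0 to 1 lower, and the calls came from the fit without knockdown replicate 1 (FOXA3 and HNF4G). Over the 62 list genes tested, 0 were higher and 2 lower, beside 0.250% and 0.629% of all genes tested. The replicate block gave 9 higher and 16 lower (9.94% and 25.0% of all genes tested), and the GC-content offset 0 lower. The offset with the block gave 12 and 13 (12.4% and 13.4%), and the fit without replicate 1 gave 6 and 14 (9.68% and 25.3%). Limma-voom gave 1 higher and 3 lower (1.29% and 1.72%) and, with the replicate block, 21 and 14 (17.5% and 20.5%). The transcript-length offset gave 1 and 1. Each scaling and the filter of at least 1 TPM in every library gave 1 higher, and no filter 0 lower. Leaving out each library gave from 0 to 5 higher and from 0 to 11 lower. Without knockdown replicate 1, 4.64% of all genes tested were higher and 19.8% lower. The cause was not tested. ONECUT1 had at most 9 recovered reads and NR1H4 at most 18.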
